A study of Mus musculus with 12 samples.

Results

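Opposite-strand RNAs are noncoding transcripts named after the protein-coding gene on the other strand, with os added to its symbol. The genes described here are those that GENCODE M21 does not class as protein coding, whose symbol ends in os or in os and a digit, and that had at least 20 raw counts summed over 12 libraries. This left 118 of the 48526 gene rows of the count tables, out of 290 noncoding rows with such a name, of which 69 had no count in any library. The members were thus chosen by name and annotation and selected on 1 measured value, the count summed over all libraries. No comparison below tests this sum. It holds the counts that are compared, however, so a scarce member can enter through its input counts alone. The edge of the choice was close: Plekhd1os, Dhx58os and Lyrm7os entered with 20 counts, and Dhrs13os with 19, Gssos1 with 18 and Arl4aos with 18 did not. GENCODE classes 104 of the 118 as antisense, 7 as lincRNA, 5 as processed transcript, Cep83os as a bidirectional-promoter RNA and Abhd11os as a transcribed unitary pseudogene.

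An antisense RNA is transcribed from the strand opposite to another gene, either across its body or away from a shared promoter. Many such RNAs stay in the nucleus at low copy number, and a stretch that overlaps an exon of the host is complementary to the host's messenger RNA. If both strands are transcribed in the same cell, such a stretch can pair with the messenger RNA and form double-stranded RNA, the ligand of innate sensors such as MDA5.

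The RNA came from epithelial cells released with EDTA from the intestine of female mice aged 3 months. The proximal part of the small intestine is described as the source, but the sample titles read whole intestine epithelial cells. The region is therefore not settled here. In 2 mice (DKO) deletion of Kat2a and Kat2b, both genes of lysine acetyltransferases, was induced with tamoxifen in ethanol and corn oil, at 100 mg/kg once a day for 4 days by intraperitoneal injection, and the 2 control mice received the solvent only. Cells were taken 2 days after the treatment ended. Each mouse gave an input library of unselected RNA and pulldown libraries made with J2 and with K1, antibodies that bind double-stranded RNA whatever its sequence. Deletion and tamoxifen exposure changed together and cannot be told apart, and the sources used here do not name the Cre driver or the strain. Among the input libraries the fitted log2 fold change of Kat2a in DKO was -0.88 (edgeR adjusted p = 0.0205) and that of Kat2b -1.51 (adjusted p = 0.000632).

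Reads counted on genes numbered 10307281 to 11474107 per input library, 13308021 to 16139531 per control pulldown and 2220291 to 5826361 per DKO pulldown. The 2 DKO pulldown replicates of each antibody stood further apart than replicates elsewhere, with a Pearson correlation of log2 CPM across genes of 0.914 for J2 and 0.936 for K1, against 0.984 or higher in the other groups. Markers of enterocytes and of stem, goblet, Paneth and enteroendocrine cells were present in input, and none of these was at 0. The summed level of 4 stem-cell markers was 377 to 379 CPM in control input and 33.1 to 64.9 CPM in DKO input, that of 4 Paneth markers 2646 to 3061 and 1116 to 2025 CPM, that of 3 enteroendocrine markers 95.4 to 112 and 134 to 178 CPM, and that of 5 leukocyte markers 47.4 to 56.2 and 32.4 to 34.4 CPM. Summed over 4 stromal markers the level was 2.21 to 3.19 CPM in DKO input, 1.99 to 32.1 CPM in control K1 and 56.4 to 159 CPM in DKO K1. In bulk RNA, fewer cells of a type and less RNA per cell cannot be told apart, and the part of these shifts in the results below was not tested. Reads were counted without regard to strand, so counts of an opposite-strand RNA can include unspliced RNA of its host, and the strand of no read is known.

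A host was found in the table for 116 of the 118 members. These are 105 different protein-coding genes, since some hosts have several numbered partners, and each lies on the strand opposite to its member. In 71 pairs exons overlap, in 29 the gene bodies overlap without any shared exon base, in 10 the genes lie head to head with start sites at most 1000 bases apart, and 6 pairs have another layout. Exon bases of 78 members are shared with some annotated gene. The shared stretch is the one place where member and messenger RNA are complementary along annotated exons. Below are the longest stretches shared with coding exons of the host in Adap2os, one of the overlapping members raised in the control K1 pulldown, and in Slc13a2os, Anxa11os and Galnt6os, which were depleted there. Each is printed on the member's strand from GENCODE M21 transcripts (GRCm38), with the shared bases in capitals and up to 15 bases of the member's exon on either side in lower case.
Adap2os, chr11:80177156-80177289, minus strand: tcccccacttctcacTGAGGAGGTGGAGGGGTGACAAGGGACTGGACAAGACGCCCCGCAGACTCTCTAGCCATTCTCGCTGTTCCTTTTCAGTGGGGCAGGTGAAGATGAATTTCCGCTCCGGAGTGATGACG
Slc13a2os, chr11:78404363-78404592, plus strand: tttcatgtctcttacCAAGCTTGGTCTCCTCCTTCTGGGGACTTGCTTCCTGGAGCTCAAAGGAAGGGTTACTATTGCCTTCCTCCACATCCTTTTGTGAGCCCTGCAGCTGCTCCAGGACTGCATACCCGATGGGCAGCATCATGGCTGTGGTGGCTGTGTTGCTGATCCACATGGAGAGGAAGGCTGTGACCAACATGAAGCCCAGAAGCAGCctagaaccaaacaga
Anxa11os, chr14:25870054-25870196, minus strand: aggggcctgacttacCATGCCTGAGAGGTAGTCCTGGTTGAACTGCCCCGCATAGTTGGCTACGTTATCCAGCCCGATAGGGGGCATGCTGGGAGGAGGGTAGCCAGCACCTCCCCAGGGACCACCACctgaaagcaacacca
Galnt6os, chr15:100703394-100703597, plus strand: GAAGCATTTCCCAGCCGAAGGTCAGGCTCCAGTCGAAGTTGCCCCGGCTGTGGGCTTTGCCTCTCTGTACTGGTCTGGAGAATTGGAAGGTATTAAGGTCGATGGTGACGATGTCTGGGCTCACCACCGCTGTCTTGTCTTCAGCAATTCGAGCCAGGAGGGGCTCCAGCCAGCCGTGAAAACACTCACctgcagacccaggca
The capitals run over 119, 200, 113 and 189 bases in that order, with a GC content of 57.1%, 55.5%, 61.9% and 56.6%. In Adap2os all 146 bases shared with Adap2 are coding, and in Slc13a2os all 632 shared with Slc13a2. A search for self-complementary stretches within a transcript (arms of at least 50 bases at 80% identity or more) found 0 in the 118 members and such arms in 22 of 1270 other antisense and lincRNA genes.

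In head-to-head pairs the member and the host share no exon but start from one short stretch of DNA. The stretches between the start sites are shown for 4 of these pairs, with Brip1os because it is the most abundant member. They are printed on the host's strand from the RefSeq promoter table (GRCm38.p6), which lists 74 of the members and 84 of the 105 hosts, and capitals mark matches on either strand to the GC box GGGCGG, the CCAAT box CCAAT, the TATA box TATAAA and the interferon-stimulated response element, searched as GAAA, any 2 bases and GAAA.
Brip1 and Brip1os, chr11:86201194-86201369, minus strand: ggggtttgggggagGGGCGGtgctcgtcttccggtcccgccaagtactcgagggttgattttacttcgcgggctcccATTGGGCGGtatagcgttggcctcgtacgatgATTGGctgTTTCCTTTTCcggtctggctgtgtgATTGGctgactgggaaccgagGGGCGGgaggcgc
Map2k3 and Map2k3os, chr11:60931868-60932032, plus strand: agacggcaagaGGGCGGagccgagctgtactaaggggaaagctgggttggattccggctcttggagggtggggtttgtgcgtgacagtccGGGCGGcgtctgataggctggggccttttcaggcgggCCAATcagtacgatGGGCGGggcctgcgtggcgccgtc
Cep83 and Cep83os, chr10:94688577-94688653, plus strand: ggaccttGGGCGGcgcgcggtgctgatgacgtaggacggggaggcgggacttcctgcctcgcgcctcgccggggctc
Stam and Stamos, chr2:14073935-14074097, plus strand: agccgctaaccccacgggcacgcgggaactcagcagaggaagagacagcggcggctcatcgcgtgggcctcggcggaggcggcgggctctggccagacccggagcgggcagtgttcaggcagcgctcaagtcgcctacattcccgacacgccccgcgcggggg
Between Brip1 and Brip1os lie 3 matches to the GC box, 3 to the CCAAT box on the opposite strand, 1 of which overlaps a GC box, and 1 to the interferon-stimulated response element. Of 32851 promoters, 30% hold the GC box, 27.1% the CCAAT box and 1.95% the response element in the same 176 bases before the start. The Map2k3 stretch holds 3 GC boxes and 1 CCAAT box, the Cep83 stretch 1 GC box, and the Stam stretch none of the motifs. The GC content of the stretches was 61.9%, 65.5%, 75.3% and 72.4%. A match is a run of letters and not evidence of binding.

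Most members were scarce. The median member had 64 counts over the 12 libraries, 41 members had at least 100, 12 had at least 500, and 4 had at least 1000: Brip1os, Rab10os, Abhd11os and Adap2os. Brip1os (ENSMUSG00000085208.3, chr11:86201370-86304443, plus strand) alone held 27.3% of all member counts. Summed over the members, their share of all counts on genes was 0.0375% ± 0.0000513 for control input (mean ± SD, n = 2) and 0.0345% ± 0.00226 for DKO input. Per kilobase of exon, the level in control input was highest in Abhd11os with 19.0 CPM per kb, followed by Hnf4aos with 16.2, Brip1os with 11 and Adap2os with 8.83 CPM per kb, and the median member had 0.594 CPM per kb.

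Brip1os had 923 and 982 counts in control input and 745 and 1133 in DKO input. These are 71.4 ± 1.87 and 73.1 ± 14.8 CPM, and the DKO values lie on either side of the control values. Its head-to-head host Brip1, a DNA helicase of the BRCA1 repair pathway, had 130 and 110 counts in control input and 98 and 153 in DKO, so the noncoding partner had 7100 and 8927 counts per 1000 counts of Brip1 in control. Of its exon bases, 20.2% are shared with Ints2 and Med13, and 3.93% of its longest transcript is nearly identical to transcripts of 4 other genes, so part of its counts is uncertain. Rab10os, which shares 143 exon bases with the vesicle-transport GTPase gene Rab10, had 260 and 254 counts in control input and 334 and 311 in DKO, a log2 fold change of 0.42 ± 0.154 (SE) that did not pass (edgeR adjusted p = 0.0710). Among 19071 other genes with at least 20 counts, log2 CPM over the 12 libraries ran most like that of Brip1os in Gm37558 (Pearson r = 0.923), Gm43136 (0.906) and Slc30a10, a manganese transporter (0.905), values that rest on libraries sharing antibody and depth.

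**Figure D1:**
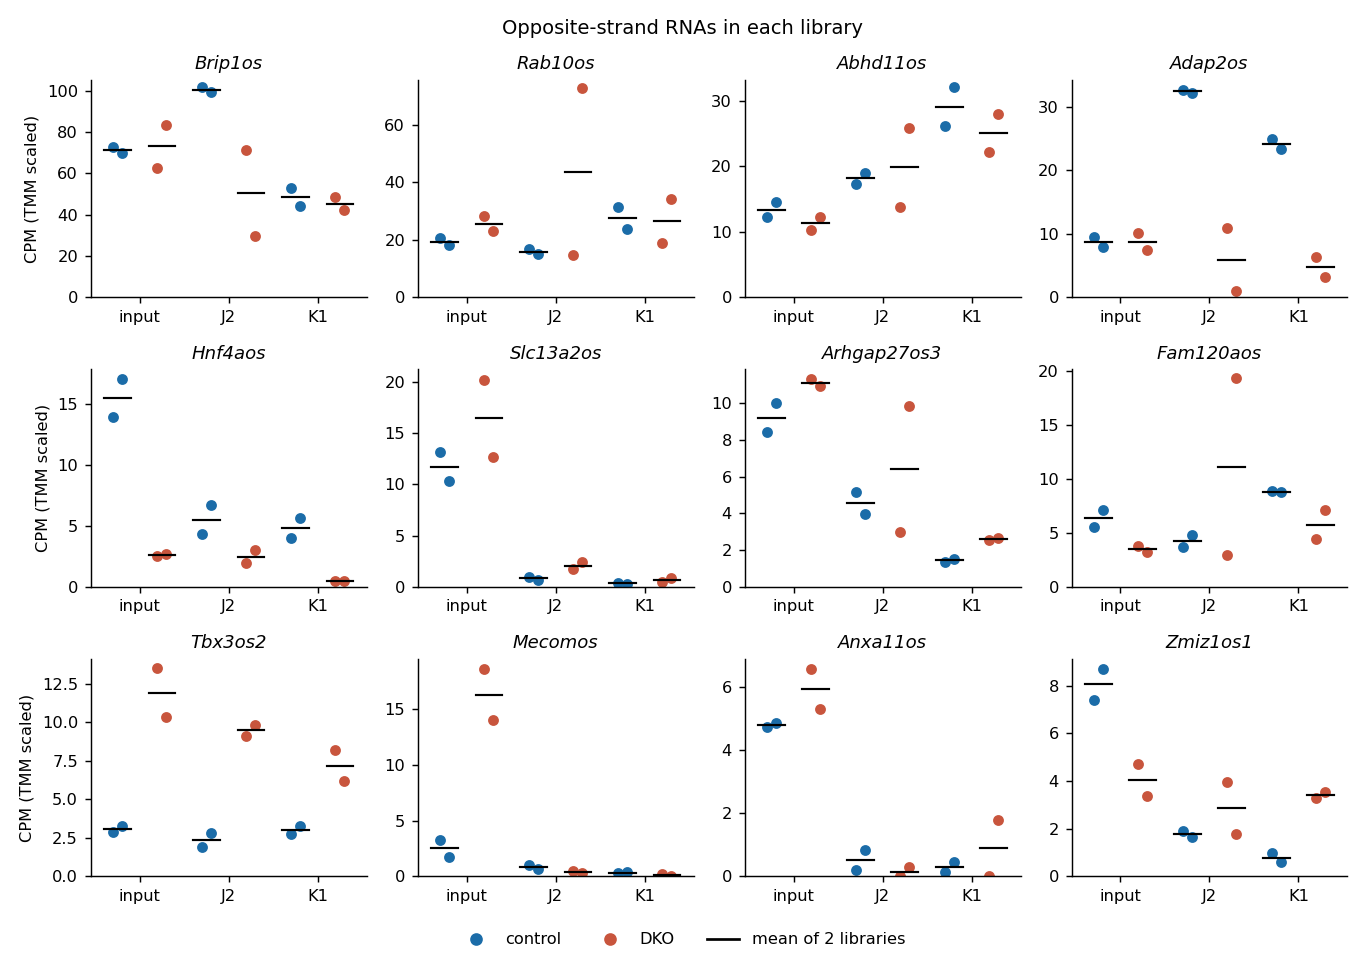
CPM (TMM scaled) of 12 opposite-strand RNAs in input, J2 and K1 libraries, with 1 point per library, control in blue, DKO in red and a bar at the mean of 2 libraries. Hnf4aos fell and Mecomos and Tbx3os2 rose in DKO input, Slc13a2os, Mecomos and Anxa11os were near 0 in both pulldowns, and the 2 DKO J2 points of Rab10os and Fam120aos lie far apart.

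The first comparison asked which opposite-strand RNAs differed between DKO and control epithelium in unselected RNA. Of the 118 members, 61 passed the filter on low counts, 13 of them with a mean of at least 10 raw counts in only 1 genotype. With edgeR at an adjusted p under 0.05, 18 were called: 7 rose and 11 fell. The share called among all 15088 genes tested was 35.9%, with 18.8% rising and 17.1% falling, so the members' share of 29.5% was near or below that of genes at large. The median log2 fold change was -0.20 over the tested members and 0.00 over all genes. DESeq2 called 11 of the members, against 4143 of 15088 genes. Fewer members were called when any 1 mouse was left out. Over all genes, fewer were called without control replicate 1, control replicate 2 or DKO replicate 1, and more without DKO replicate 2.

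Members whose hosts are genes of transcription regulators are described first. Hnf4aos (ENSMUSG00000046840.16, chr2:163493807-163541720, minus strand) lies across Hnf4a, a nuclear receptor that drives enterocyte genes, without sharing exon bases with it. It had 177 and 238 counts in control input and 30 and 36 in DKO, or 15.5 ± 2.15 and 2.59 ± 0.0946 CPM. Both DKO libraries were far below both controls, and Hnf4aos fell by 2.56 ± 0.220 (SE) on the log2 scale (edgeR adjusted p = 0.000283). Hnf4a itself had 11228 and 11934 counts in control and 11998 and 10958 in DKO, with a log2 fold change of 0.08 (adjusted p = 0.719). The noncoding partner thus went from 15.8 and 19.9 counts per 1000 host counts to 2.5 and 3.29.

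Mecomos (ENSMUSG00000085702.8, chr3:30012379-30054808, plus strand) overlaps an exon of Mecom, a zinc-finger transcription factor gene, over 81 bases. It had 42 and 25 counts in control input and 221 and 190 in DKO, and it rose by 2.7 ± 0.306 on the log2 scale (edgeR adjusted p = 0.000725). Here the host moved by the same amount, from 211 and 202 counts to 1255 and 1304, with a log2 fold change of 2.72 (edgeR adjusted p = 5.69e-05). Tbx3os2 (ENSMUSG00000086847.1, chr5:119685095-119691218, minus strand) lies beyond the end of Tbx3, a T-box repressor gene, with 370 bases between the genes. It went from 37 and 46 counts in control input to 161 and 140 in DKO input and rose by 1.95 ± 0.236 (edgeR adjusted p = 0.000943), while Tbx3 went from 4658 and 5145 counts to 2764 and 3102 and fell by 0.65 (edgeR adjusted p = 0.00570, but 0.176 with all 12 libraries in one fit). It was the 1 pair of the comparison in which member and host were both called in opposite directions. Zmiz1os1, which shares 297 exon bases with the transcriptional coactivator gene Zmiz1, had 94 and 122 counts in control and 56 and 46 in DKO and fell by 0.98 ± 0.247 (edgeR adjusted p = 0.0189). That call was lost without control replicate 2, with all 12 libraries in one fit (edgeR adjusted p = 0.113) and when all libraries were thinned to the smallest (0.236).

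The other named members that fell have hosts that encode enzymes or an RNA-binding protein. Far2os1 (ENSMUSG00000089948.1, chr6:148060855-148067873, minus strand) lies within Far2, a fatty acyl-CoA reductase gene, with no shared exon base. It had 55 and 50 counts in control input and 5 and 8 in DKO, and it fell by 2.91 ± 0.358 on the log2 scale (edgeR adjusted p = 0.001), with Far2 at 908 and 997 against 205 and 262 counts (log2 fold change -1.95, adjusted p = 0.000101). Pnpla1os, which shares 644 exon bases with Pnpla1, a gene of the patatin-like phospholipase family, had 42 and 52 counts in control and 6 and 9 in DKO and fell by 2.54 ± 0.341 (edgeR adjusted p = 0.00146). Pnpla1 was too scarce to follow closely, with 8 and 17 counts in control and 11 and 7 in DKO (log2 fold change -0.37, adjusted p = 0.592). Ube4bos1, which shares 452 coding bases with the ubiquitin ligase gene Ube4b, had 36 and 44 counts in control and 15 and 8 in DKO and fell by 1.69 ± 0.386 (edgeR adjusted p = 0.0128), and Ube4b fell by 1.08 (adjusted p = 0.000696). Fam120aos, head to head with the RNA-binding protein gene Fam120a, had 71 and 100 counts in control and 45 and 44 in DKO. It fell by 0.84 ± 0.248 (edgeR adjusted p = 0.0332), a call lost without control replicate 2 (0.252) or DKO replicate 2 (0.0666), with DESeq2 (0.0991), with all 12 libraries in one fit (0.422) and when thinned (0.0779), while Fam120a had a log2 fold change of -0.04.

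Of the 59 pairs in which both partners were tested, 13 had both called in one direction, 6 rising and 7 falling, and 1 had them called in opposite directions. In 4 pairs only the member was called, in 10 only the host, and in 31 neither. Across the 59 pairs the Pearson correlation of the log2 fold changes was 0.74, given as a description, since partners share libraries, locus and unstranded counting. The other pairs that rose together, named after their values were seen, were Kirrel3os, Ttc39aos1, Map2k3os, Egfros and Tmcc3os with their hosts. Kirrel3os had 1 and 0 counts in control and 12 and 17 in DKO. Against a floor of 3 counts in each library it was at least 5.02-fold higher in DKO. Egfros, whose body but no exon overlaps the growth factor receptor gene Egfr, had 32 and 31 counts in control and 60 and 66 in DKO (log2 fold change 1.08, edgeR adjusted p = 0.0132), and Egfr had a log2 fold change of 1.36 (adjusted p = 0.00388).

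**Figure D2:**
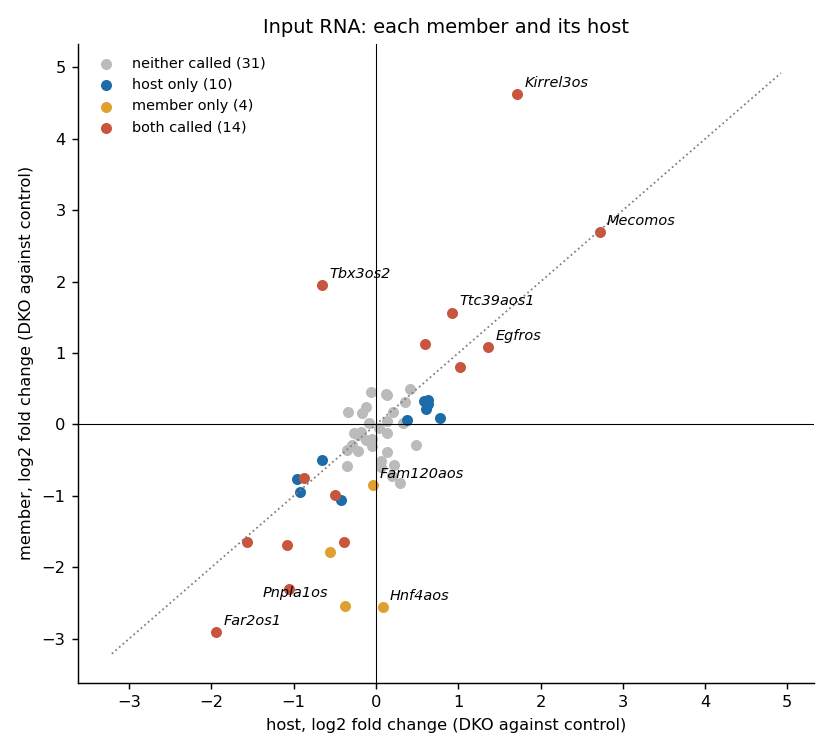
Log2 fold change in input, DKO against control, of each member (vertical axis) against that of its host (horizontal axis) for 59 pairs, coloured by which partner was called with edgeR at an adjusted p under 0.05, with equality as a dotted line. Most pairs called on both sides lie near the line. Tbx3os2 lies in the opposite quadrant, and Hnf4aos, Pnpla1os and Fam120aos lie below a host that was not called.

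The next comparison asked which members were enriched or depleted by the K1 antibody in control epithelium. Over all 118 members, both K1 values lay below both input values in 85 and above them in 8, against 36.7% and 39.8% of 19072 genes with at least 20 counts. Scarce members can be among the 118 through input counts alone, so a lower K1 value can be built into their choice. Of the members, 64 passed the filter and 37 were called with edgeR, 2 higher and 35 lower in K1, against 39.8% of 15908 genes called, 19.7% higher and 20.1% lower. Of the 64, 35 averaged at least 10 raw counts in control input but not in the deeper control K1. A lower K1 value can thus be built into their choice, and the counts describe the tested members alone. The filter scales its minimum by depth and ran over libraries of both genotypes. These raw means therefore do not count the members that passed through input alone. The median log2 fold change was -1.96 over the tested members, 0.00 over all genes and 0.32 over 96 tested hosts, of which 33 rose and 11 fell. Leaving out control replicate 1 left 6 of the 37 calls and leaving out control replicate 2 left 5. Slc13a2os and Arhgap27os3 were called in both, Ube4bos1, Lrrc75aos1, Prkag2os1 and Zmiz1os1 without control replicate 1, and Mecomos, Slc6a19os and Uckl1os without control replicate 2. Over all genes the same settings left 338 and 281 calls of 6324. The lone control mouse is then assumed to vary like the DKO mice.

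Both members named here whose hosts are transporter genes fell. Slc13a2os (ENSMUSG00000085747.1, chr11:78394485-78405657, plus strand), whose exons overlap those of the dicarboxylate transporter gene Slc13a2, had 167 and 145 counts in control input and 6 and 4 in control K1, although the K1 libraries were deeper. In CPM this is 11.8 ± 1.99 against 0.346 ± 0.0544, and Slc13a2os fell by 5.17 ± 0.411 on the log2 scale (edgeR adjusted p = 9.28e-05). Slc13a2 fell by 2.11 (adjusted p = 0.00320), from 1638 and 1959 counts to 432 and 538, so that the member went from 102 and 74.0 counts per 1000 host counts to 13.9 and 7.43. Slc6a19os, which partly overlaps the gene of the brush-border amino acid transporter Slc6a19 without sharing exon bases, had 6.87 ± 1.54 CPM in input and 0.538 ± 0.217 CPM in K1 and fell by 3.81 ± 0.480 (edgeR adjusted p = 0.000436), with Slc6a19 at a log2 fold change of -0.74 (adjusted p = 0.197). That call of Slc6a19os did not hold without control replicate 1 (adjusted p = 0.0673), and the host call of Slc13a2 did not hold without control replicate 1 (0.134) or 2 (0.0920).

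Other members fell while their hosts were not called lower. Anxa11os, which shares 113 coding bases with the annexin gene Anxa11, had 60 and 68 counts in input and 2 and 6 in K1 and fell by 4.17 ± 0.659 (edgeR adjusted p = 0.00107), while Anxa11 had a log2 fold change of -0.17 (adjusted p = 0.589). Prkag2os1, which shares 142 exon bases with the gene of an AMP-activated kinase subunit, had 44 and 60 counts in input and 2 and 1 in K1, at least 18.3-fold lower against the floor, and Prkag2 had a log2 fold change of 0.26 (edgeR adjusted p = 0.404). Ube4bos1 had 36 and 44 counts in input and 5 and 0 in K1 and fell by 4.16 ± 0.722 (edgeR adjusted p = 0.00212), whereas Ube4b rose by 1.09 (adjusted p = 0.00424). Hnf4aos had 63 and 73 counts in K1 and fell by 1.83 ± 0.267 (edgeR adjusted p = 0.000793), whereas Hnf4a rose by 1.69 (adjusted p = 0.00688). The calls of the hosts Ube4b (0.217 and 0.268) and Hnf4a (0.267 and 0.259) were lost without control replicate 1 or 2, and that of Hnf4a also with all 12 libraries in one fit (0.0839). Those of Anxa11os (0.0884 and 0.0542) and Hnf4aos (0.104 and 0.0971) were lost without control replicate 1 or 2, and those of Prkag2os1 (0.0505), Zmiz1os1 (0.0504) and Ube4bos1 (0.0955) without control replicate 2.

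Members whose hosts encode a glycosyltransferase, a Rab regulator and a nucleoside kinase also fell in control K1. Galnt6os, whose coding overlap with the mucin-type O-glycosylation gene Galnt6 is printed above, had 47 and 39 counts in control input and 5 and 6 in control K1 and fell by 3.17 ± 0.452 (edgeR adjusted p = 0.000729), with Galnt6 at a log2 fold change of 0.36 (adjusted p = 0.421). Tbc1d22bos, which shares 115 coding bases with a gene of the TBC-domain family of Rab regulators, had 36 and 41 counts in input and 7 and 7 in K1 and fell by 2.67 ± 0.482 (edgeR adjusted p = 0.00258). Its host Tbc1d22b rose from 752 and 764 counts to 2983 and 2171 (log2 fold change 1.51, adjusted p = 0.000602). Uckl1os, which shares 459 exon bases with a uridine kinase-like gene, had 44 and 69 counts in input and 3 and 9 in K1 and fell by 3.41 ± 0.495 (edgeR adjusted p = 0.000784), together with Uckl1, which fell by 1.07 (adjusted p = 0.00294). Without control replicate 1 or 2 the edgeR adjusted p was 0.0972 or 0.0576 for Galnt6os, 0.128 or 0.114 for Tbc1d22bos, 0.0979 or 0.0920 for Tbc1d22b and 0.241 or 0.127 for Uckl1, and that of Uckl1os was 0.0617 without control replicate 1.

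Some hosts have several numbered partners. Arhgap27 has Arhgap27os3 over its body without shared exon bases and Arhgap27os2 across its coding exons, with 1055 of 1390 exon bases shared. Arhgap27os3 had 107 and 140 counts in control input and 21 and 20 in K1 and fell by 2.81 ± 0.280 (edgeR adjusted p = 0.000161), and Arhgap27os2 had 28 and 34 in input and 7 and 7 in K1 and fell by 2.36 ± 0.425 (adjusted p = 0.00256). Arhgap27 had 1052 and 1027 counts in input and 1969 and 1801 in K1, a log2 fold change of 0.62 that did not pass (adjusted p = 0.0643). Within the leucine-rich repeat gene Lrrc75a, Lrrc75aos1 had 44 and 46 counts in input and 5 and 1 in K1 (log2 fold change -4.08 ± 0.536, edgeR adjusted p = 0.000670). Lrrc75aos2 had 25 and 28 in input and 2 and 2 in K1, at least 9.39-fold lower. Lrrc75a rose by 0.54 (edgeR adjusted p = 0.0481). Without control replicate 1 or 2 the edgeR adjusted p was 0.139 or 0.135 for Arhgap27os2, 0.0785 or 0.0745 for Lrrc75aos2 and 0.502 or 0.459 for Lrrc75a, and that of Lrrc75aos1 was 0.0663 without control replicate 2. With DESeq2, Lrrc75a did not pass either (adjusted p = 0.132).

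Low counts limit the remaining named members. Atxn7l1os1, within an ataxin 7-like gene, had 14 and 28 counts in control input and 1 and 3 in K1, at least 7.34-fold lower, and 6.48% of its longest transcript is nearly identical to transcripts of 53 other genes. Pip5k1bos, within a phosphatidylinositol phosphate kinase gene, had 21 and 31 counts in input and 3 and 5 in K1 and fell by 2.88 ± 0.511 (edgeR adjusted p = 0.00239). Nr6a1os, within the orphan nuclear receptor gene Nr6a1, had 23 and 30 counts in input and 22 and 10 in K1, and its log2 fold change of -0.97 ± 0.436 did not pass (edgeR adjusted p = 0.105), while Nr6a1 rose by 0.82 (edgeR adjusted p = 0.00502). Without control replicate 1 or 2 the edgeR adjusted p was 0.103 or 0.114 for Atxn7l1os1, 0.117 or 0.105 for Pip5k1bos and 0.263 or 0.244 for Nr6a1.

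Over the 61 pairs tested on both sides, 34 members fell, and their hosts rose in 13 of these pairs, fell in 5 and were not called in 16. The member's fold change lay below that of its host in 53 of the 61. In 111 pairs with host counts, the median of member counts per 1000 host counts was 37.5 in control input and 7.11 in control K1, and the ratio was lower in both K1 libraries than in both input libraries in 89 pairs and higher in 3. Scarce members are among these pairs, so a lower ratio can be built into their choice as well. No such ratio was taken for other genes. By layout, members whose body but no exon overlaps the host had a median log2 fold change of -2.85 with 13 of 16 called, members with overlapping exons -2.26 with 23 of 38 called, and head-to-head members -0.63 with 1 of 6 called, namely Brip1os. The share called over all genes was 39.8%. Members that passed the filter through input counts were not counted by layout, and no test compared the layouts.

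**Figure D3:**
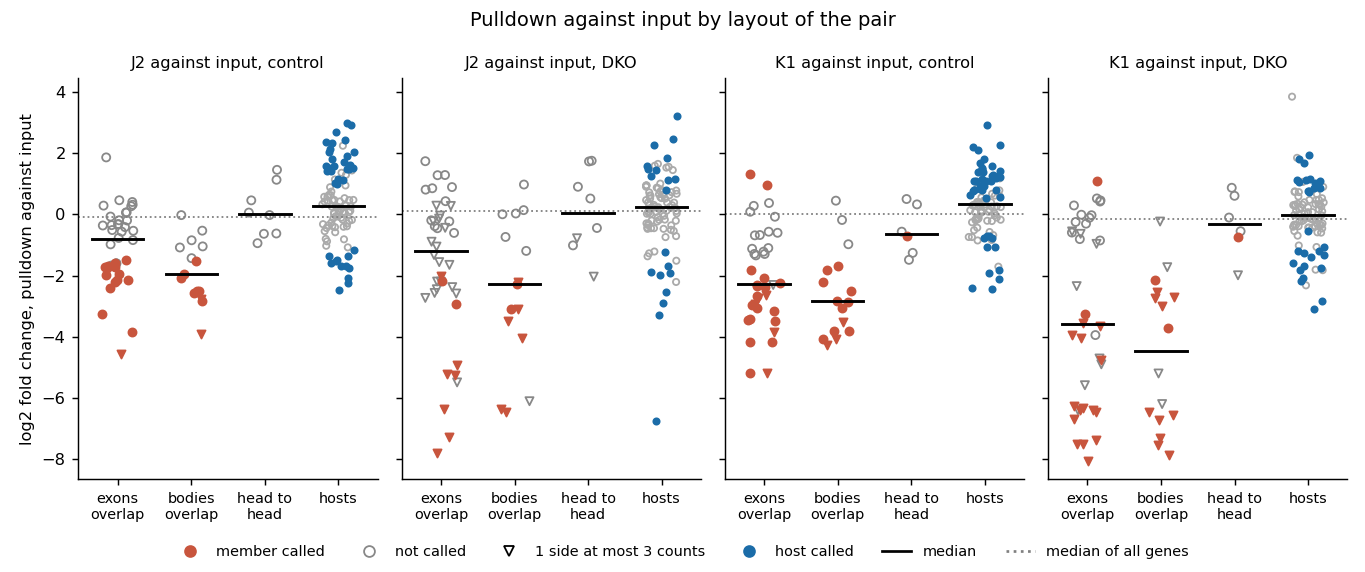
Log2 fold change of pulldown against input for each tested member by the layout of its pair and for tested hosts, in the 4 pulldown comparisons, with filled points called by edgeR, triangles for members with at most 3 counts in every library of 1 side, black bars at the medians and a dotted line at the median of all genes. Members with overlapping exons or bodies lie mostly below the dotted line, head-to-head members and hosts around it.

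Only Adap2os and Abhd11os were called higher in K1 among the 64 tested members in control, and 9 of the 64 had a fitted value above 0. Adap2os (ENSMUSG00000086507.1, chr11:80158861-80177629, minus strand) overlaps coding exons of Adap2, which encodes an Arf GTPase-activating protein. It had 121 and 110 counts in control input and 389 and 303 in control K1, or 8.69 ± 1.19 and 24.1 ± 1.16 CPM, and rose by 1.33 ± 0.274 (edgeR adjusted p = 0.00385). Adap2 rose by 0.81 (adjusted p = 0.0384), and the noncoding partner moved from 242 and 239 to 337 and 355 counts per 1000 host counts. The call of Adap2 was lost with DESeq2 (0.0965), without TMM scaling (0.0695), with RLE size factors (0.0732), with all 12 libraries in one fit (0.0750), when thinned (0.195) and without control replicate 1 (0.339) or 2 (0.384). Abhd11os (ENSMUSG00000085042.7, chr5:135012114-135013253, minus strand), which shares 62 untranslated exon bases with the mitochondrial hydrolase gene Abhd11, had 155 and 203 counts in input and 407 and 418 in K1, and it rose by 0.98 ± 0.229 (edgeR adjusted p = 0.00726). Abhd11 had a log2 fold change of 0.40 (adjusted p = 0.156). Both calls were lost without control replicate 1 (0.152 for Adap2os, 0.209 for Abhd11os) and without control replicate 2 (0.197 and 0.241), that of Adap2os also with all 12 libraries in one fit (0.0899), and that of Abhd11os also without TMM scaling (0.0638) and when thinned (0.143), with log2 fold changes of 0.66 or higher in each of these fits. Brip1os was lower in K1, with 824 and 575 counts against 923 and 982 in input, and fell by 0.70 ± 0.214 (edgeR adjusted p = 0.0250, lost without control replicate 1 or 2 at 0.293 and 0.475).

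**Figure D4:**
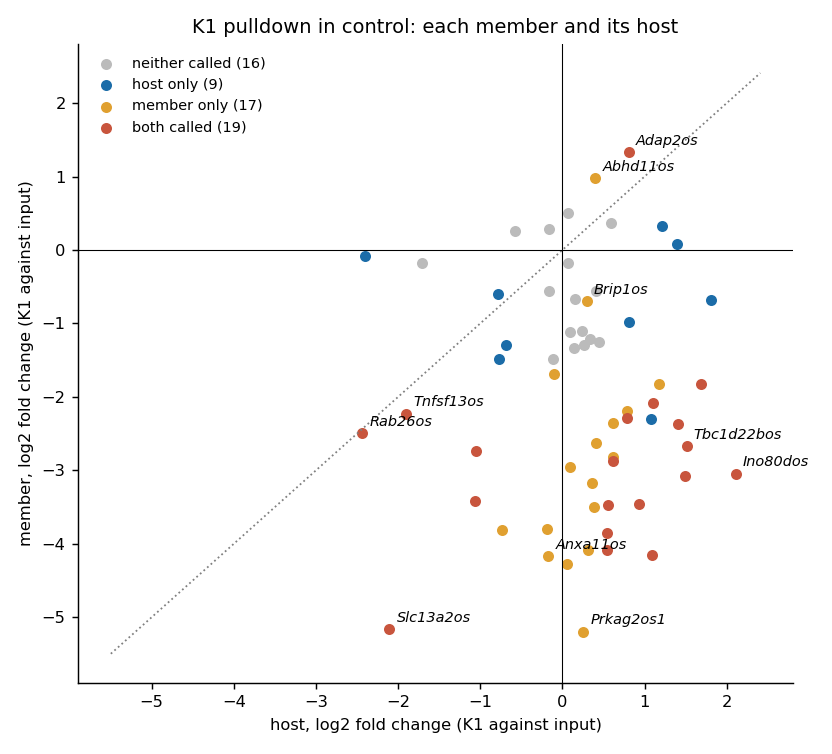
Log2 fold change of K1 against input in control of each member (vertical axis) against that of its host (horizontal axis) for 61 pairs, coloured by which partner was called with edgeR at an adjusted p under 0.05, with equality as a dotted line. In 53 pairs the member lies below the line, and 13 of the members that fell lie beside a host that rose.

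With the J2 antibody in control, 71 of the 118 members had both values below input and 11 above, against 40.8% and 36.5% of genes. The choice by summed counts sets the same limit here as for K1. Of 67 members tested, 24 were called with edgeR, all lower, against 29.8% of 15923 genes called, 15.2% higher and 14.6% lower. Among the 67, 21 averaged at least 10 raw counts in control input but not in control J2. The median log2 fold change was -0.84 over the tested members and -0.07 over all genes. None of the 24 calls remained without control replicate 1 or without control replicate 2, when edgeR called 0 of all genes as well and 17 and 9 members had an unadjusted p under 0.05, against 13.3% and 12.4% of all genes. Slc13a2os had 14 and 8 counts in control J2 and fell by 3.85 ± 0.410 (edgeR adjusted p = 0.00193, and 0.315 and 0.325 in those fits), and Anxa11os had 3 and 10 and fell by 3.26 ± 0.570 (adjusted p = 0.00605, then 0.335 and 0.325). Adap2os had 467 and 391 counts in control J2, or 32.4 ± 0.365 CPM against 8.69 ± 1.19 in input. Its J2 values did not overlap those of input, yet the log2 fold change of 1.86 ± 0.631 did not pass (adjusted p = 0.0564). Brip1os had 1455 and 1209 counts in control J2 and a log2 fold change of 0.46 ± 0.379 (adjusted p = 0.390). In the 65 pairs tested on both sides, the 24 members that fell stood beside 6 hosts that rose, 4 that fell and 14 that were not called. The 8 head-to-head members tested had a median of 0.02, with 0 called by edgeR and 0 at an unadjusted p under 0.05.

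Antisense genes with no os name had lower medians than the members in both control pulldowns, and lincRNA genes had higher ones. In control K1, 332 of 476 tested antisense genes of that kind fell and 15 rose, with a median log2 fold change of -2.53, and 131 of 321 lincRNA genes fell and 20 rose, with a median of -1.27. In control J2 the medians were -1.44 and -0.53. RNAs known to be held in the nucleus were depleted as well in control K1, by 3.30 for Malat1, 3.38 for Neat1 and 2.29 for Kcnq1ot1 on the log2 scale (edgeR adjusted p = 0.000917, 0.000150 and 0.00156). In control J2 their log2 fold changes were -1.55, -2.06 and -0.68 (edgeR adjusted p = 0.118, 0.00703 and 0.411). In DKO K1 they were -0.64, -2.41 and -0.53 (edgeR adjusted p = 0.295, 0.000543 and 0.316). Of Malat1, Neat1 and Kcnq1ot1, only Neat1 was called in each of these comparisons. Xist, another such RNA, was called lower in control K1, control J2 and DKO K1. Its log2 fold changes there were -4.71, -3.18 and -3.56 (edgeR adjusted p = 8.48e-05, 0.00413 and 0.000152). In DKO J2 the values of Malat1, Neat1, Kcnq1ot1 and Xist were 0.19, -1.82, 0.36 and -2.93 (edgeR adjusted p = 0.851, 0.0131, 0.673 and 0.00681). Reads assigned to no counted feature made up 26.4% ± 0.894 of the listed reads in control input, 14.9% ± 0.980 in control J2 and 8.0% ± 1.23 in control K1 (SD, n = 2). They may include reads on introns, since the sources used here do not give the counting mode. The part of these shifts in the values of the members was not tested.

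In DKO the pulldown libraries were shallow, and members with at least 1 count numbered 68 to 73 in J2 and 48 to 51 in K1, against 111 to 116 in the input libraries and 98 to 108 in the control pulldowns. K1 against input in DKO gave 31 calls with edgeR among 64 members, 2 higher and 29 lower, against 35.6% of all genes, 14.6% higher and 21% lower. Of the 64, 40 averaged at least 10 raw counts in DKO input but not in the shallower DKO K1, and in 38 one side was at most 3 counts in each library. With these at their bound the median log2 fold change was -0.11, against -2.72 as fitted, so the fitted depth of the fall is not measured in these libraries. Mecomos, which had 221 and 190 counts in DKO input, had 1 and 0 in DKO K1, at least 16-fold lower, and 2 and 1 in DKO J2, at least 19.9-fold lower, while Mecom had log2 fold changes of -0.39 and 0.02. Slc13a2os had 241 and 172 counts in DKO input and 2 and 2 in DKO K1, at least 16.2-fold lower. Abhd11os again rose in K1, from 123 and 166 counts to 95 and 63 in libraries of smaller depth, or from 11.3 ± 1.35 to 25.1 ± 4.08 CPM (log2 fold change 1.09 ± 0.246, edgeR adjusted p = 0.00802, but 0.0650 without TMM scaling). J2 against input in DKO gave 17 calls among 67 members, all lower, against 25.7% of all genes, 12.2% higher and 13.4% lower. With mouse as a replicate block it gave 10, against 3398 of 15923 genes. Of the 67, 37 averaged at least 10 raw counts in DKO input but not in DKO J2. One side was at the floor in 37, with a median of -0.14 with bounds and -0.89 as fitted. A lower pulldown value can be built into the choice of members in both DKO comparisons. The filter scales its minimum by depth, so these raw means do not count the members that passed through input alone. Of the 17 calls, those of Slc13a2os, Mecomos, Anxa11os and Uckl1os remained without control replicate 1 or control replicate 2, and the others were lost. More members were called without DKO replicate 1. Calls over all genes moved the same way in each of these fits.

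The spread between the DKO pulldowns reached single members. Rab10os had 59 and 244 counts in DKO J2, which is 43.6 ± 41.1 CPM, and Fam120aos 12 and 65, which is 11.2 ± 11.6 CPM. In both the second DKO library was the high one, although it held the smaller total. Adap2os went the other way with 44 and 3 counts, or 5.87 ± 7.04 CPM.

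The last comparison asked whether enrichment over input differed between genotypes, as an interaction over both genotypes. For J2, 0 of 67 members were called with edgeR, against 2.71% of all genes, and DESeq2 called 1, against 1980 of 15923 genes. An unadjusted p under 0.05 was reached by 11 of the 67, against 25.9% of all genes. For K1, 2 of 64 members were called, Adap2os and Zmiz1os1, against 5.47% of all genes. Adap2os had 121 and 100 counts in DKO input and 27 and 7 in DKO K1. Its K1 minus input difference in log2 CPM was 1.37 and 1.54 in the control mice and -0.67 and -1.20 in the DKO mice, and the fitted difference was -2.18 ± 0.436 (SE, edgeR adjusted p = 0.0263). For Adap2 it was -1.10 (adjusted p = 0.133). For J2 minus input Adap2os had 1.76 and 2.01 in the control mice but 0.09 and -2.79 in the DKO mice, with a fitted difference of -2.31 ± 0.930 that did not pass (adjusted p = 0.167).

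Zmiz1os1 (ENSMUSG00000087535.1, chr14:25257523-25461128, minus strand) overlaps an exon of Zmiz1 and moved the other way. It had 15 and 8 counts in control K1 and 14 and 8 in the shallower DKO K1, or 0.788 ± 0.245 and 3.41 ± 0.198 CPM, against 8.06 ± 0.919 and 4.05 ± 0.929 CPM in input. K1 minus input was -2.71 and -3.45 in the control mice and -0.50 and 0.06 in the DKO mice, with a fitted difference of 3.15 ± 0.549 (edgeR adjusted p = 0.0194). Zmiz1 had a fitted difference of -1.52 (adjusted p = 0.0419), so member and host were called in opposite directions. The call of Zmiz1 was lost with RLE size factors (0.0700), with all 12 libraries in one fit (0.275), when thinned (0.0689) and without control replicate 1 (0.672) or 2 (0.511). Both member calls were lost without control replicate 1 (adjusted p = 0.584 for Adap2os and 0.494 for Zmiz1os1) and without control replicate 2 (0.345 and 0.326), with all 12 libraries in one fit (0.244 and 0.0561) and when all libraries were thinned to 2220291 counts (0.126 and 0.301). The fitted differences in these fits were between -2.31 and -1.72 for Adap2os and between 2.38 and 3.62 for Zmiz1os1.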

How the data were processed

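Epithelial input RNA and J2 and K1 pulldowns were sequenced in 12 libraries, 3 from each of 4 mice. Libraries were primed with random hexamers, carried molecular identifiers and were read as pairs of 150 bp, per the labels' protocols. The authors deposited 1 table of raw read counts by gene for each library, counted without strand per the labels. The submitters' processing notes name FastQC, STAR 2.7.10b, SAMtools 1.17, UMI-tools 1.1.4, HTSeq 2.0.2 and the build mm10/GRCm38.p4. The counting mode, the annotation release and the order of steps are not given in the sources used here. Rows for reads assigned to no counted feature, ambiguous reads and reads with several alignments were left out of library sizes. If ambiguous reads were set aside, bases shared with another gene add nothing to a member's count. Ambiguous reads were 3.84% to 5.91% of the listed reads by group mean.

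Gene types, symbols and coordinates came from GENCODE M21 (GRCm38), matched to 48058 of 48526 rows. The test was the quasi-likelihood test of edgeR 4.0.16 (R 4.3.3) after TMM scaling and filterByExpr at a minimum of 10 counts, with a call at a Benjamini-Hochberg adjusted p under 0.05 over all genes tested. Input fits held 4 libraries with 2 residual degrees of freedom and pulldown fits 8 with 4. CPM used TMM over the 12 libraries and log2 CPM a prior count of 2. A side with at most 3 counts in every library was treated as at the floor, and its fold is a bound against 3 counts that covers counting error only. An exact permutation test of 2 mice against 2 cannot go below p = 0.333 (two-sided), so single values carry only the fits across genes. The edgeR script was run on simulated counts with 200 changed genes per comparison and independent noise in each library. That setting differs from the real data, so it bears on the script and not on the calls reported here.

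Members and lists were chosen with earlier results of these data known. Named with values are the 8 members with most counts, up to 6 called members per comparison with a mean of at least 20 counts in a group, by size of fold change, and Slc13a2os and Mecomos; others are marked in the text. Stretches printed as sequence were chosen after values were seen. Near-identical copies were searched with blastn 2.17.0+ (97% identity over at least 100 bases). Alternatives were DESeq2 1.42.0, RLE or no scaling factors, no filter, all 12 libraries in one fit, thinning to the smallest library, each mouse left out, and mouse as a block. The animal codes in the labels tie each pulldown to the input of the same mouse, and deviations from group means correlated at 0.178 to 0.245 between them. Replicate libraries of a group differed beyond sampling noise, with a chi-square per degree of freedom of 9.78 or higher.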

Additional observations from a re-analysis of the deposited data

Results flagged for a closer look

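The K1 enrichment of Adap2os differed between genotypes by the test of the difference itself, at -2.18 on the log2 scale, DKO minus control (edgeR adjusted p = 0.0263). That of Zmiz1os1 differed by 3.15 (edgeR adjusted p = 0.0194), the opposite direction. Both calls were lost with all 12 libraries in one fit, when thinned and without either control mouse, as given above.

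Far2os1 was lower in J2 than in input in both control mice, by -0.32 and -0.69 in log2 CPM, and higher in both DKO mice, by 0.16 and 1.1, a mean difference of 1.14. It rests on 2 and 5 counts in DKO J2 and 5 and 8 in DKO input, and the interaction did not pass (edgeR adjusted p = 0.278).

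Reads assigned to more than one gene, which no comparison used, were 5.66% ± 0.404 of the listed reads in DKO J2 and 5.91% ± 0.288 in DKO K1 (SD, n = 2), against 3.84% ± 0.268 in control J2 and 4.65% ± 0.509 in control K1. Among them would be reads on the exon bases that 78 members share with other genes, and their part in the members' values was not tested.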

How the results depend on the processing

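Numbers of called members moved by over 1.5 times under some settings. In input (18 called) DESeq2 called 11, all 12 libraries in one fit 7 and thinning 6. Over all genes (5421 of 15088 called) these settings called 4143 of 15088, 1675 of 16582 and 3378 of 10837. For J2 against input in control (24) thinning gave 5, and in DKO (17) no filter gave 29, thinning 6 and the replicate block 10. Over all genes thinning gave 2504 of 11503 in control (4747 of 15923). In DKO (4087 of 15923) no filter gave 5464 of 29004 genes, thinning 2089 of 11503 and the replicate block 3398 of 15923. For K1 against input thinning gave 13 in control (37) and 10 in DKO (31). Of 11421 genes thinning called 3029 in control and 3475 in DKO, against 6324 and 5659 of 15908 genes without it. For the J2 difference (0) DESeq2 and all 12 libraries in one fit each called 1 and no filter 8. Over all genes (432 of 15923) they called 1980 of 15923, 898 of 16582 and 2453 of 29004. For the K1 difference (2) no filter called 7, all 12 libraries in one fit 0 and thinning 0. Over all genes (870 of 15908) they called 1763 of 28702, 59 of 16582 and 232 of 11421. Leaving out each mouse in turn gave 10 to 16 in input, 0 to 37 (J2) and 5 to 47 (K1) in control, 4 to 28 (J2) and 19 to 22 (K1) in DKO, 0 to 16 for the J2 difference and 0 to 8 for the K1 difference. With 1 mouse left in a genotype, the spread comes from the other genotype. Thinning tests fewer genes, and no filter tests more. The cause of the other shifts was not tested.

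The replicate block gave 19 calls in input, where same-numbered mice of different genotype are not pairs (correlation of deviations 0.0177), 23 (J2) and 37 (K1) in control, 32 (K1) in DKO and 3 for the K1 difference. Over all genes it called 5732 of 15088 in input, and 4483 of 15923 (J2) and 7288 of 15908 (K1) in control. It called 6337 of 15908 genes for K1 in DKO and 1912 of 15908 for the K1 difference. Of 113 called values of named members and hosts, 1210 refits kept every direction, 964 kept the call and 246 lost it, 72 without control replicate 1 and 76 without control replicate 2. Only 80 of the 113 values had a thinned refit, and the others are not among the 1210 for that setting. Without TMM scaling the median of all genes moved to -0.13 in input, -0.44 (J2, control) and -0.23 (K1, control), and members higher and lower were 6 and 13 in input and 1 and 37 for K1 in control. Over all genes 42.1% of 5074 calls were higher in input and 35.9% of 5965 for K1 in control.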
